A study of Rattus norvegicus with 9 samples.

Results

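The VEGF and angiopoietin genes of rat osteoblasts were taken as the 9 genes named Vegfa, Vegfb, Vegfc, Vegfd, Pgf, Angpt1, Angpt2, Angptl2 and Angptl4, matched by symbol among the 19085 genes of the deposited table. All 9 were found, and all 9 passed the filter on low counts. RNA sequencing had been run on primary osteoblasts of Sprague-Dawley rats that were kept for 7 days in osteogenic induction medium, which contains β-glycerophosphate, ascorbic acid and dexamethasone. The 3 groups held 3 libraries each. Control cells received the induction medium alone, Thrombin cells received it with 20 U/mL thrombin, and PD03 cells received it with 20 U/mL thrombin and 0.1 µM of the MEK inhibitor PD0325901. The medium with its dexamethasone was thus shared by all groups. No library was labelled as the inhibitor without thrombin, so what PD03 did by itself and what it did to the response to thrombin cannot be told apart. The animals were male newborns and the cells came from calvaria according to the protocols, whereas the sample labels name the knee as tissue. One label protocol gives the inhibitor dose as 0.1 mM, and the other sources give 0.1 µM.

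The VEGF family comprises secreted dimeric growth factors that act on receptor tyrosine kinases of blood and lymphatic endothelium. VEGF-A is the main driver of blood vessel growth, placental growth factor (Pgf) and VEGF-B bind the receptor encoded by Flt1, and VEGF-C and VEGF-D act on lymphatic vessels through the receptor encoded by Flt4. The angiopoietins bind the receptor Tie2, encoded by Tek: angiopoietin-1 is the agonist that keeps vessels stable, and angiopoietin-2 opposes it in most settings. Angiopoietin-like proteins do not bind Tie2. ANGPTL2 is a secreted protein linked to inflammation, and ANGPTL4 inhibits lipoprotein lipase. Osteoblast-lineage cells are a known source of VEGF-A, which couples vessel growth to bone formation.

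Promoter sequences are shown for 4 members, Vegfd and Angptl2, which had the highest transcript levels in control and were called higher in PD03 libraries than in both other groups, and Pgf and Vegfb, which were highest with thrombin and were called lower in PD03 than in thrombin libraries. Each is the 150 bases that end just before the RefSeq transcription start, read 5′ to 3′ on the gene's strand in the GRCr8 assembly. The Vegfd stretch is chrX:33739893-33740042 on the minus strand, the Angptl2 stretch is chr3:36914726-36914875 on the plus strand, the Pgf stretch is chr6:110557748-110557897 on the minus strand and the Vegfb stretch is chr1:213607153-213607302 on the minus strand. Capitals mark matches, on either strand, to the TATA box letters TATAAA, the GC box letters GGGCGG and the nuclear receptor hexamer AGGTCA.
Vegfd promoter: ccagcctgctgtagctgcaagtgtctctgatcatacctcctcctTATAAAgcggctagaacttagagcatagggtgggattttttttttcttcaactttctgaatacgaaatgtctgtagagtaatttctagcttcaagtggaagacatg
Angptl2 promoter: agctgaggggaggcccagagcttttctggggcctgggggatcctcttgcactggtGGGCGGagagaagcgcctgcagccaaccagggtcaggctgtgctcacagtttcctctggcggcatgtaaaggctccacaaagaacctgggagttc
Pgf promoter: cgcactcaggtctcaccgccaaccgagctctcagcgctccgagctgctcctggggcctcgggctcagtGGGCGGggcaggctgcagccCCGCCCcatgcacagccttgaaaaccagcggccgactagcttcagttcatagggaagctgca
Vegfb promoter: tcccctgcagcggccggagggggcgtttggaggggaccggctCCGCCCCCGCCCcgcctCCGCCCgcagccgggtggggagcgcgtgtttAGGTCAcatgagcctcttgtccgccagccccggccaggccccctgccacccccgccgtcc
The Vegfd stretch was 41.3% G and C and held TATAAA at position -106 and no GC box. The other 3 stretches were 61.3% G and C in Angptl2, 66.7% in Pgf and 78% in Vegfb, and each held a GC box. Over the 300-base windows, from 250 bases before to 50 after the start, TATAAA occurred in 14.2% of all 33469 rat promoters, GGGCGG in 33.1% and AGGTCA in 16.2%. The windows of Vegfd, Angptl2, Pgf and Vegfb held none of the AP-1 letters TGANTCA, the ETS letters CCGGAA or the hypoxia response letters ACGTG, which were present in 7.33%, 15% and 19.3% of all promoters. Windows were matched for 7 of the 9 members, with 2 for Vegfa. Those matches are letters in a window and say nothing of binding.

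Total counts were between 15447832 and 19841468 per library. Levels in CPM are counts relative to the library total after scaling by the trimmed mean of M-values (TMM). FPKM values are those deposited, which are per length and without TMM scaling. The TMM factors were 1.017 to 1.043 in control and thrombin libraries and 0.9488 to 0.954 in PD03 libraries. Sums and shares by FPKM are therefore not on the scale of the tests. A call needed an edgeR adjusted p below 0.05, in a fit over all 9 libraries, together with a log2 fold change of more than 0.58 in size. The study describes the 3 libraries of a group as independent samples without saying what separated them, so the p-values measure the spread between these libraries. Col1a1 took 4.18% to 5.05% of the counts in control and thrombin libraries and 6.78% to 6.96% in PD03 libraries. Of the 14 genes fixed as output of the ERK pathway, 2 were called higher and 0 lower with thrombin, and 0 higher and 11 lower in PD03 against thrombin libraries. The shares over all tested genes were 2.62% higher and 5.44% lower with thrombin, and 9.61% and 6.31% between PD03 and thrombin. Among the 12 osteoblast markers, Col1a1, Col1a2 and Sparc had 85743 counts or more in every library. Runx2, Pth1r and Spp1 had 344 to 3349 counts and Sp7 had 59 to 122. Alpl was low at 6 to 62 counts and Phex at 3 to 18. The late markers were near 0, with 1 to 5 counts of Bglap, 0 to 1 of Ibsp and 0 to 4 of Dmp1 in any library. These levels do not by themselves settle the osteoblast label. Of the endothelial markers, Pecam1 had 1 to 8 counts and Esam 0 to 4, while Vwf had 10 to 26 and Erg 10 to 28. In bulk RNA, fewer cells of a type and less RNA per cell cannot be told apart.

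Vegfd was the VEGF ligand with the highest mean FPKM in each group and with the largest log2 fold changes in both comparisons of PD03. It was measured at 117.5, 109.6 and 103.3 CPM in control libraries, at 84.8, 78.5 and 78.1 CPM with thrombin, and at 219, 231 and 230 CPM with PD03. The 3 groups did not overlap, and every PD03 library lay above every control library. Vegfd rose 2.82-fold in PD03 against thrombin libraries, a log2 fold change of 1.49 (SE 0.05, adjusted p = 1.1e-27). It also rose against control, by a log2 fold change of 1.04 (SE 0.05, adjusted p = 4.8e-22). Thrombin libraries were lower than control by a log2 fold change of -0.46 (SE 0.05, adjusted p = 4.4e-10), which is short of the fold threshold. Hence the level under thrombin plus inhibitor did not return to that of control cells but passed it.

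Pgf, which encodes placental growth factor, was expressed at a low level and was highest with thrombin. Its 3 control libraries held 4.68, 4.04 and 3.85 CPM, the thrombin libraries 7.67, 7.29 and 7.17 CPM and the PD03 libraries 4.40, 4.92 and 4.59 CPM, from 61 to 133 counts. All thrombin libraries lay above all others, while control and PD03 libraries overlapped. Pgf rose with thrombin by 1.75-fold (log2 0.81, SE 0.16, adjusted p = 7e-05) and fell by 0.67 on the log2 scale with PD03 against thrombin (SE 0.15, adjusted p = 0.00031). Between PD03 and control the log2 difference was 0.14, with a 95% confidence interval from -0.20 to 0.48. Both calls were lost when the test was made against the fold threshold itself (glmTreat, adjusted p = 0.43 and 0.77), so a change larger than 0.58 was not established for this gene.

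Vegfb, the ligand of Flt1 that is best known from heart and other oxidative tissue, was also highest with thrombin, but unlike Pgf it was lower with PD03 than in control. It was 35.2, 32.1 and 33.6 CPM in control, 40.5, 42.6 and 39.9 CPM with thrombin and 29.4, 25.1 and 27.0 CPM with PD03, with no overlap between the groups. In PD03 against thrombin libraries it fell by 0.59 on the log2 scale (SE 0.07, adjusted p = 1.9e-09). This value lies at the fold threshold, and the call was lost with upper quartile scaling (-0.58), without thrombin replicate 2 (-0.57), without PD03 replicate 2 (-0.55) and with glmTreat (adjusted p = 1). Thrombin libraries differed from control by 0.28 (SE 0.07, adjusted p = 0.0012) and PD03 libraries from control by -0.31 (SE 0.07, adjusted p = 0.00055), neither large enough to be called.

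Vegfa was nearly flat between control and thrombin. The control libraries gave 90.7, 85.2 and 86.6 CPM, the thrombin libraries 90.0, 85.4 and 87.5 CPM and the PD03 libraries 98.9, 113.5 and 106 CPM. The control and thrombin ranges covered each other, and the log2 difference was 0.00 with a 95% confidence interval from -0.10 to 0.10. PD03 libraries lay above both other groups, by 0.27 over thrombin (adjusted p = 1.3e-05) and 0.28 over control (adjusted p = 2e-05), which are differences of 1.21-fold and under the fold threshold. Gene-level counts do not separate the splice forms of VEGF-A, which differ in how they bind matrix.

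Vegfc, the closest relative of Vegfd, was lower with thrombin in all libraries, as Vegfd was, and was not called in either comparison of PD03. Whether the responses of the 2 genes differ was not tested. It was at 44.8, 41.9 and 38.5 CPM in control, at 32.2, 36.0 and 35.1 CPM with thrombin and at 38.0, 39.0 and 37.2 CPM with PD03. Control and PD03 libraries overlapped, and thrombin libraries were below both. The thrombin difference was -0.28 (SE 0.07, adjusted p = 0.0013), the difference of PD03 from thrombin was 0.14 (95% confidence interval 0.0059 to 0.28, adjusted p = 0.077), and that of PD03 from control was -0.13 (-0.27 to 0.00044, adjusted p = 0.11). None was called.

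Angpt1, encoding the Tie2 agonist, was lower in both groups that received thrombin. The values were 108.7, 103.9 and 102.5 CPM in control, 56.7, 61.4 and 63.7 CPM with thrombin, and 47.9, 55.4 and 53.3 CPM with PD03. The lowest control library stood clear of the highest thrombin library, and every PD03 library was below every thrombin library. Angpt1 fell with thrombin to 0.58 of control, a log2 fold change of -0.79 (SE 0.06, adjusted p = 1.5e-15). PD03 libraries fell to 0.50 of control (log2 -1.01, SE 0.06, adjusted p = 8.4e-19), and their difference from thrombin was -0.22 (SE 0.06, adjusted p = 0.0019), under the fold threshold. It was the member in which the inhibitor libraries stayed farthest below control.

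Angpt2, encoding the context-dependent antagonist of Tie2, was scarce. It was counted 52, 41 and 41 times in control, 20, 16 and 11 times with thrombin and 57, 44 and 38 times with PD03, or 2.83, 2.59 and 2.59 CPM, then 1.19, 0.877 and 0.641 CPM, then 3.02, 2.85 and 2.33 CPM. Thrombin libraries were clearly apart from the rest, while control and PD03 libraries overlapped. Angpt2 fell with thrombin to 0.34 of control (log2 -1.56, SE 0.29, adjusted p = 3.3e-05) and was higher by 3.02-fold in PD03 than in thrombin libraries (log2 1.60, SE 0.29, adjusted p = 8.9e-06). PD03 and control differed by 0.03, with a 95% confidence interval from -0.45 to 0.52 that these few counts allow. In RefSeq annotation Angpt2 overlaps Mcph1, which had 291 to 383 counts in control, 402 to 475 with thrombin and 222 to 289 with PD03. Since strand was not marked in the library preparation, reads of exons that overlap cannot be told apart, and the part of this in the Angpt2 counts was not tested.

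Angptl2 had the highest level of the angiopoietin-like genes measured and followed the direction of Vegfd. It was at 161.7, 165.5 and 166.8 CPM in control, at 145.3, 134.8 and 140.5 CPM with thrombin and at 285.2, 272 and 276.1 CPM with PD03, and no groups overlapped. Angptl2 rose 1.98-fold in PD03 against thrombin libraries (log2 0.99, SE 0.04, adjusted p = 9.4e-24) and 1.69-fold against control (log2 0.76, SE 0.04, adjusted p = 1.4e-19). The thrombin difference from control was small (log2 -0.23, SE 0.04, adjusted p = 1.7e-05) and not called. Ralgps1 overlaps this gene on the opposite strand, with 32 to 79 counts in any library against 2410 to 5383 of Angptl2. Elsewhere among the members, RefSeq places a pseudogene over Vegfd and a long non-coding RNA gene over Angpt1. Neither is in the deposited table, and their part in the counts of Vegfd and Angpt1 was not tested.

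Angptl4, the inhibitor of lipoprotein lipase, was at 91.3, 94.0 and 89.4 CPM in control, at 74.8, 75.0 and 74.1 CPM with thrombin and at 76.1, 70.8 and 70.1 CPM with PD03. Thrombin and PD03 libraries overlapped and control libraries were above them. The differences from control were -0.30 with thrombin (SE 0.05, adjusted p = 8.6e-06) and -0.34 with PD03 (SE 0.05, adjusted p = 4.6e-07), both under the fold threshold, and PD03 differed from thrombin by -0.04 (95% confidence interval -0.15 to 0.06). It was thus the member with the smallest difference between thrombin and PD03 libraries.

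**Figure D1:**
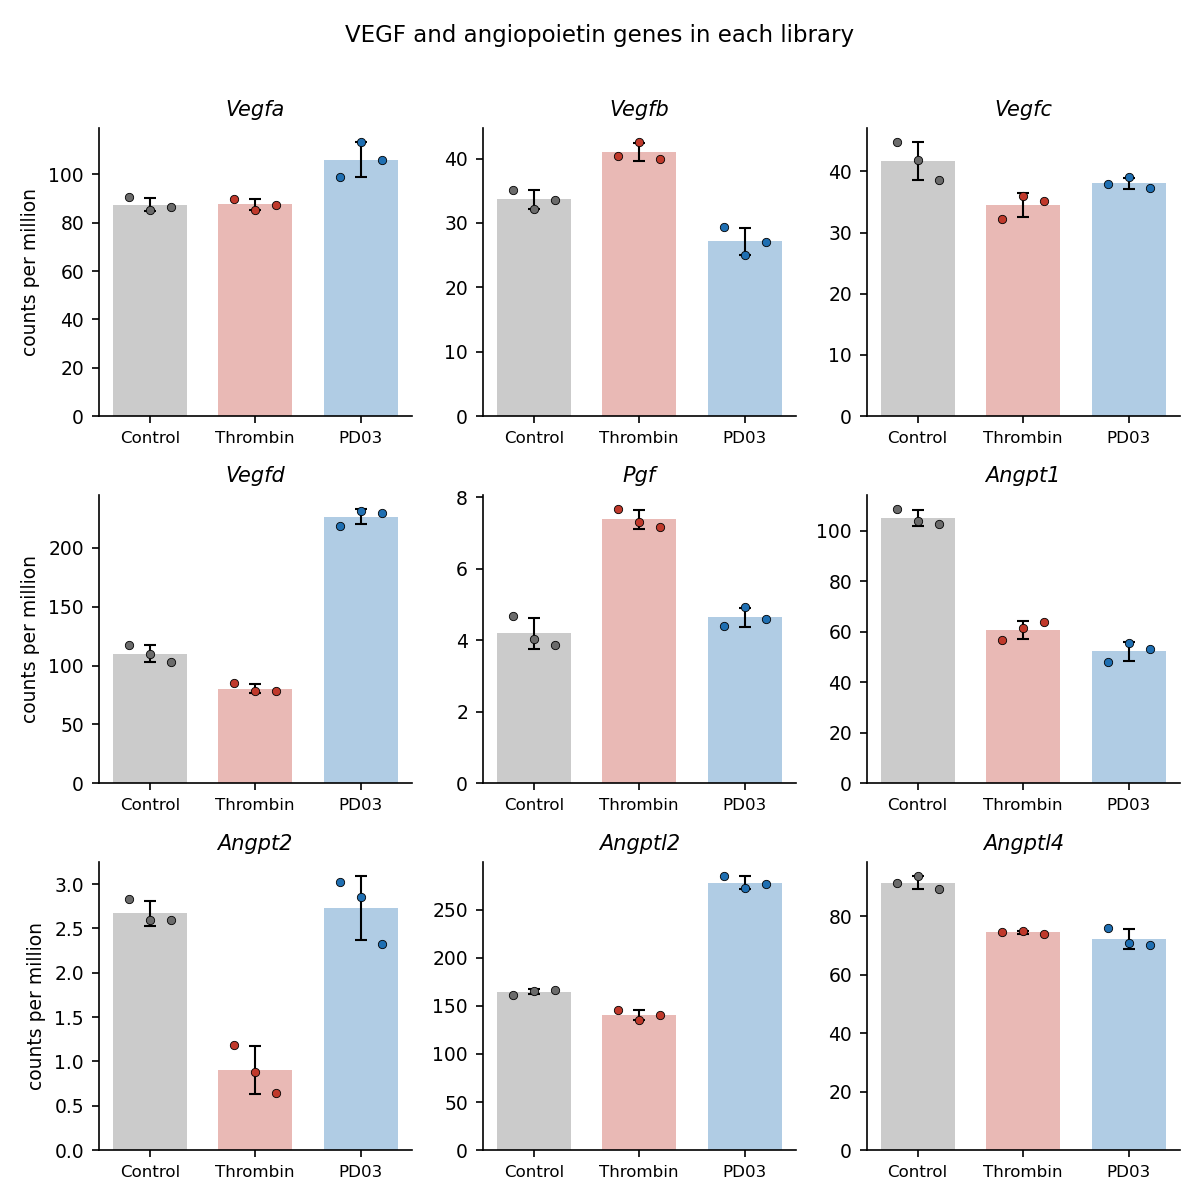
CPM (y axis, from 0, own scale for each gene) of the 9 genes in Control, Thrombin and PD03 libraries. Points are libraries, bars are means and error bars the SD (n = 3); Vegfd and Angptl2 are highest with PD03, Pgf is highest and Angpt2 lowest with thrombin, and Angpt1 is highest in control.

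The 9 genes did not move as a block. With thrombin, 3 of 9 were called, Pgf higher and Angpt1 and Angpt2 lower, where 8.06% of the 13256 tested genes were called, 2.62% higher and 5.44% lower. Between PD03 and thrombin, 5 of 9 were called, Vegfd, Angpt2 and Angptl2 higher and Vegfb and Pgf lower, where 15.9% of all tested genes were called, 9.61% higher and 6.31% lower. Between PD03 and control, 3 of 9 were called, Vegfd and Angptl2 higher and Angpt1 lower, where the shares over all genes were 8.97% in either direction, 4.9% higher and 4.07% lower. The median log2 fold change of the 9 genes was -0.28, 0.14 and 0.03 in these comparisons, and that of all tested genes -0.01, 0.01 and 0.00. With the adjusted p alone and no fold threshold, 8, 7 and 6 of the 9 genes passed, where 28.7%, 49.8% and 39.9% of all tested genes did.

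The comparisons of thrombin with control and of PD03 with thrombin share the thrombin libraries, so their values are given side by side and not as evidence for each other. Pgf stood at 0.81 and -0.67, Angpt2 at -1.56 and 1.60, Vegfb at 0.28 and -0.59, Vegfd at -0.46 and 1.49, Angptl2 at -0.23 and 0.99, and Angpt1 at -0.79 and -0.22. In PD03 against control libraries Pgf and Angpt2 were not called, Vegfd and Angptl2 were called above control, and Angpt1 was called below it.

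**Figure D2:**
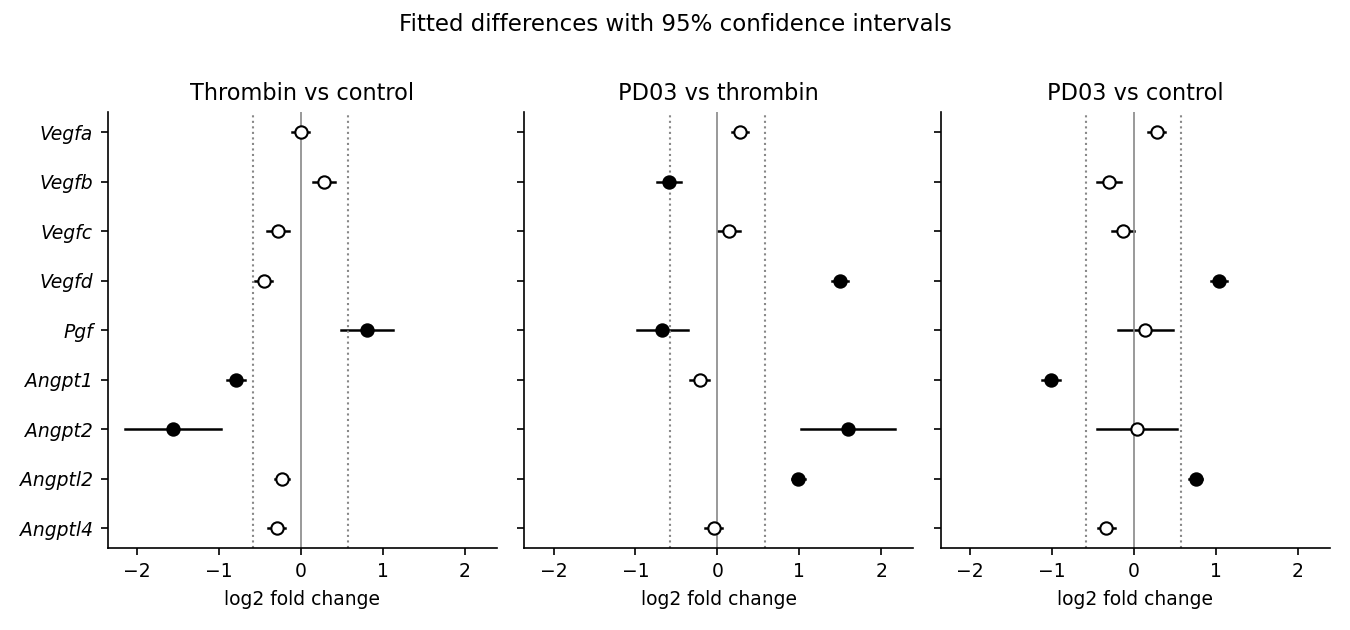
Log2 fold changes (x axis) of the 9 genes in the comparisons of Thrombin with Control, PD03 with Thrombin and PD03 with Control, from the edgeR fit. Lines are 95% confidence intervals, filled points are called genes, and dotted lines mark a log2 fold change of 0.58 in either direction; the interval of Vegfb in the middle panel spans the dotted line, and those of Pgf and Angpt2 are the widest.

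Compared per length, Vegfd and the angiopoietin-like genes led the order of levels. In control libraries mean FPKM was 64.0 ± 4.7 for Vegfd, 57.7 ± 0.42 for Angptl2, 51.7 ± 1.4 for Angptl4, 27.2 ± 1.1 for Angpt1, 24.0 ± 1.0 for Vegfa, 22.6 ± 1.9 for Vegfc, 13.6 ± 0.73 for Vegfb, 2.77 ± 0.31 for Pgf and 1.21 ± 0.07 for Angpt2 (SD, n = 3). Of these neighbours Vegfa and Vegfc overlapped between libraries. With thrombin, Angptl2 (48.5 ± 1.8) and Vegfd (46.2 ± 2.3) overlapped at the top, and Vegfb (16.4 ± 0.58) and Angpt1 (15.5 ± 0.88) overlapped farther down, since Angpt1 had lost its place above Vegfa and Vegfc. With PD03 no neighbours overlapped, and Vegfd (121.5 ± 3.6) stood above Angptl2 (89.8 ± 2.1), Angptl4 (37.7 ± 1.7), Vegfa (26.9 ± 1.9), Vegfc (19.0 ± 0.49), Angpt1 (12.5 ± 0.93), Vegfb (10.1 ± 0.79), Pgf (2.83 ± 0.17) and Angpt2 (1.15 ± 0.15). Among all tested genes, ranked by level, Vegfd lay at percentile 93.0 in control, 89.9 with thrombin and 96.8 with PD03, and Angpt2 at 17.3, 8.16 and 17.3.

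Vegfd made up 50.4% ± 0.61 of the summed FPKM of the 5 VEGF ligands in control libraries, 42.1% ± 1.3 with thrombin and 67.4% ± 0.45 with PD03 (SD, n = 3). The share of Vegfa was 18.9% ± 0.65, 21.7% ± 0.43 and 14.9% ± 0.65. The sum itself was 127 ± 8.3 FPKM in control, 109.6 ± 2.0 with thrombin and 180.3 ± 4.9 with PD03, and both the sum and the share of Vegfd were highest with PD03. The ratio of Angpt1 to Angpt2 by FPKM was 22.4 ± 0.49 in control, 41.2 ± 15 with thrombin and 11.1 ± 2.0 with PD03. Its denominator under thrombin rested on 11 to 20 counts of Angpt2. The ratio of Angptl2 to Angptl4 was 1.12 ± 0.04, 1.17 ± 0.05 and 2.38 ± 0.06.

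**Figure D3:**
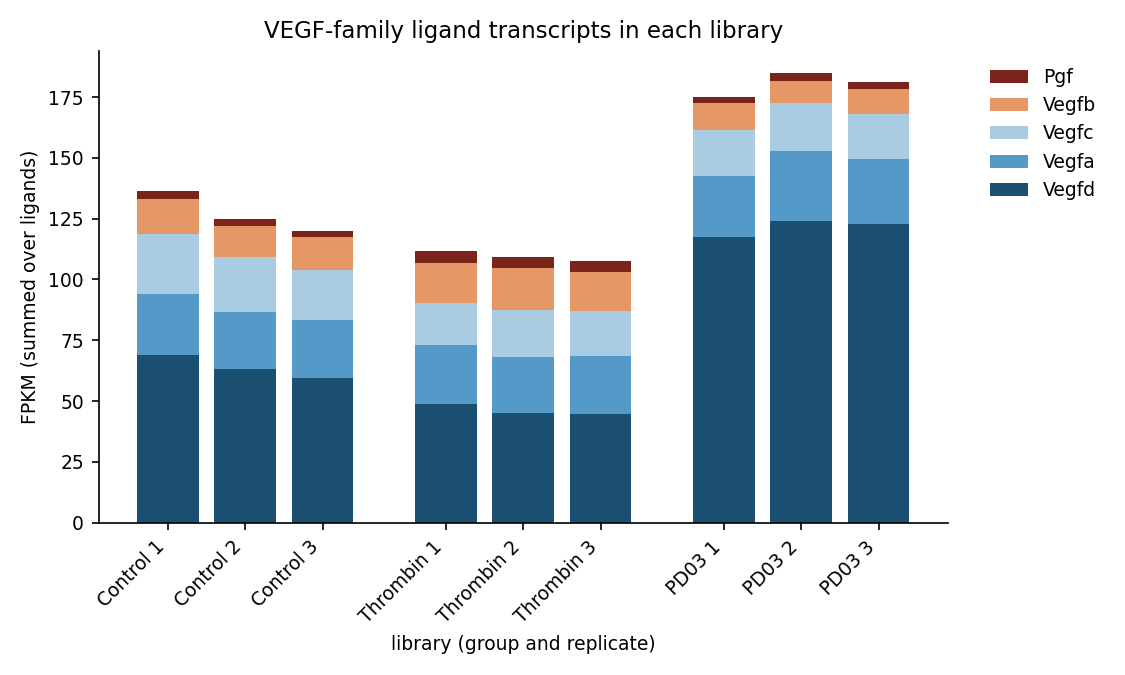
FPKM of the 5 VEGF-family ligand genes, stacked, in each of the 9 libraries (x axis, group and replicate). Vegfd is the bottom block, with 42.1% of the sum on average with thrombin and 67.4% with PD03, while the blocks of Vegfb and Pgf are highest with thrombin.

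The receptors for these ligands are mostly endothelial, and their transcripts were scarce apart from the neuropilin co-receptors. Nrp2, a co-receptor for VEGF-C and VEGF-A that also binds semaphorins, was at 320.3, 312.2 and 317 CPM in control, 424.4, 423.7 and 436.2 CPM with thrombin and 368.2, 383.7 and 389 CPM with PD03. Its groups did not overlap, and the differences were 0.44 for thrombin over control (adjusted p = 1.5e-13), -0.17 for PD03 over thrombin (adjusted p = 6.9e-05) and 0.26 for PD03 over control (adjusted p = 5.1e-08), none large enough to be called. Nrp1, the other neuropilin, had means of 76.1 ± 3.6, 95.6 ± 1.8 and 92.3 ± 2.0 CPM (SD, n = 3), and 0.33 was its log2 difference between thrombin and control (adjusted p = 8.6e-07). By FPKM, Nrp2 (42.7 ± 0.90 in control) and Nrp1 (15.8 ± 0.89) far exceeded Flt1 (2.11 ± 0.17), Tek (1.43 ± 0.09), Flt4 (0.397 ± 0.079) and Kdr (0.0826 ± 0.0098).

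Flt4, the receptor for VEGF-C and VEGF-D, was counted 26, 31 and 34 times in control, 50, 75 and 61 times with thrombin and 35, 35 and 25 times with PD03. All thrombin libraries were above the others. Flt4 rose with thrombin (log2 0.96, SE 0.24, adjusted p = 0.002) and fell by 0.92 with PD03 against thrombin (SE 0.24, adjusted p = 0.0014), in each case with the opposite sign to its ligand gene Vegfd. Both calls were lost on the FPKM scale with 1 added (0.33 and -0.35) and with glmTreat (adjusted p = 0.36 and 0.24).

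Kdr, the main signalling receptor for VEGF-A, had 9, 10 and 9 counts in control, 19, 13 and 4 with thrombin and 29, 32 and 33 with PD03. PD03 libraries were above all others. It rose against thrombin (log2 1.43, SE 0.37, adjusted p = 0.0014) and against control (log2 1.72, SE 0.39, adjusted p = 0.00038), from counts so low that on the FPKM scale with 1 added the differences were 0.19 and 0.21 and not called. Tek, the angiopoietin receptor, had 109, 106 and 107 counts in control, 121, 100 and 100 with thrombin and 172, 157 and 151 with PD03. Tek rose in PD03 against thrombin libraries (log2 0.62, SE 0.14, adjusted p = 0.00019), but the call was lost with library totals (0.53), without thrombin replicate 2 (0.53), without PD03 replicate 2 (0.56) and on both FPKM scales (0.33 and 0.50). The difference of Tek between PD03 and control was 0.56 (adjusted p = 0.00099), just under the threshold, and was called without control replicate 3 (0.59) or without PD03 replicate 1 (0.59).

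Flt1, the receptor that binds Pgf, VEGF-B and VEGF-A, was 14.2, 15.0 and 12.9 CPM in control, 10.8, 9.38 and 11.3 CPM with thrombin and 11.6, 12.6 and 11.6 CPM with PD03. Control libraries were higher than all others, with a thrombin difference of -0.42 (SE 0.11, adjusted p = 0.0026), which was not called. Gene-level counts do not separate the soluble form of this receptor. Tie1, the partner of Tie2, had 0 counts in 7 libraries and 1 count in each of the other two, and was not tested. Over the 3 libraries of a group a count of 0 allows up to 0.062 CPM in control. In all, 1 of 6 tested receptors was called with thrombin, 3 between PD03 and thrombin and 1 between PD03 and control, beside the shares of all genes given above.

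**Figure D4:**
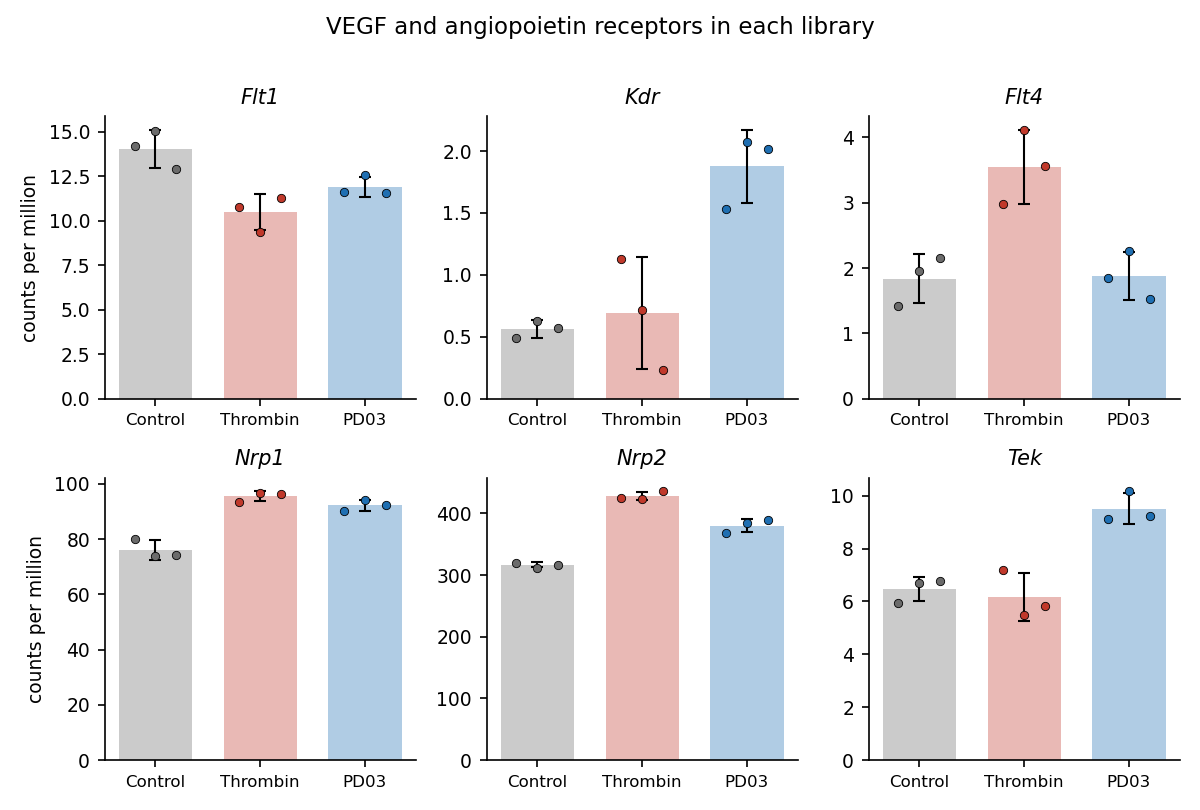
CPM (y axis, from 0, own scale for each gene) of the 6 tested receptor genes by group. Points are libraries, bars are means and error bars the SD (n = 3); Flt4 is highest with thrombin, Kdr and Tek are highest with PD03, and Kdr never exceeds 2.07 CPM.

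Kdr and Tek are also endothelial markers. Of the 14 endothelial markers listed, 9 were in the table and 5 were tested, with 0 called with thrombin and 2 called higher in PD03 libraries against each of the other groups. The called ones were Kdr and Tek against thrombin and Kdr and Egfl7 against control. Among all tested genes, 8.06% were called with thrombin, and 9.61% and 4.9% were called higher in PD03 libraries against thrombin and control. The summed FPKM of the 9 genes was 6.75 to 7.40 in control, 7.90 to 8.21 with thrombin and 10.0 to 11.3 with PD03. Most of that sum was Egfl7, with means of 4.94, 6.10 and 7.71 FPKM, and Tek, with 1.43, 1.35 and 1.94. Pecam1, Esam, Sox18 and Tie1 had at most 8 counts in any library. Vwf, at 10 to 26 counts, and Erg, at 10 to 28, were detected in every library and were not called in any comparison. The part of endothelial cells in the Kdr and Tek results was not tested. Of 9 mural markers 8 were in the table and 7 tested, with 3, 2 and 1 called in the comparisons. The shares called over all tested genes were 8.06%, 15.9% and 8.97%. Cspg4, a pericyte proteoglycan, rose by 0.90 with thrombin (adjusted p = 1.2e-16) and by 0.94 between PD03 and control (adjusted p = 1.8e-17). Pdgfrb, a receptor of pericytes and fibroblasts, fell by 0.71 between PD03 and thrombin (adjusted p = 9.2e-21), and Abcc9 rose by 0.94 there (adjusted p = 0.0036) from 22 to 49 counts. Notch3 fell by 1.22 with thrombin (adjusted p = 0.033) from 5 to 26 counts, a call lost with DESeq2 and without control replicate 1 or 2 or thrombin replicate 1 or 3 (-1.44 to -0.95 over all libraries left out). Rgs5, a defining pericyte marker, had 1 to 3 counts in control, 0 to 1 with thrombin and 5 to 9 with PD03. It did not pass the filter on low counts. Des had 91 to 158 counts, Mcam 47 to 90 and Kcnj8 4 to 40. Of 11 macrophage markers 2 could be tested. Cd14, at 249 to 562 counts, fell by 0.91 between PD03 and thrombin (adjusted p = 4.6e-12), and Csf1r, at 5 to 26 counts, rose by 1.47 between PD03 and control (adjusted p = 0.0045), a call lost without PD03 replicate 2 (1.19). Of those not tested, Ptprc, Aif1 and Cd163 were at 0 to 6 counts. Adgre1 was at 0 to 8, Itgam at 2 to 9, Lyz2 at 0 to 11 and Cd68 at 6 to 14.

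Of the 6 other angiopoietin and angiopoietin-like genes 4 were tested, and all were scarce. With thrombin 1 was called higher and 0 lower, between PD03 and thrombin 1 higher and 0 lower, and between PD03 and control 2 higher and 1 lower. The shares over all tested genes were 2.62% higher and 5.44% lower, 9.61% and 6.31%, and 4.9% and 4.07%, in that order. Angptl8, a secreted partner in lipase control, was counted 14, 5 and 16 times in control, 22, 25 and 35 times with thrombin and 27, 16 and 32 times with PD03. It rose with thrombin (log2 1.16, SE 0.38, adjusted p = 0.016), a call lost without control replicate 2 (0.84) or thrombin replicate 3 (0.93), and was also called between PD03 and control (log2 1.07, adjusted p = 0.022). Angptl7 had 15, 8 and 2 counts in control, 8, 19 and 11 with thrombin and 24, 22 and 28 with PD03. It rose against control (log2 1.55, SE 0.43, adjusted p = 0.0031) and against thrombin (log2 1.01, SE 0.39, adjusted p = 0.032), the second of which was lost without thrombin replicate 1 (0.78) or 3 (0.93), without PD03 replicate 2 (1.01) or 3 (0.88), and with DESeq2 (adjusted p = 0.068). Angptl1 fell by 0.69 in PD03 against control libraries (SE 0.24, adjusted p = 0.02), a call lost without control replicate 1 (-0.61), PD03 replicate 1 (-0.57) or PD03 replicate 2 (-0.66). Angpt4 was measured at 8.58 ± 1.8, 8.08 ± 1.3 and 7.99 ± 0.71 CPM in the 3 groups (SD, n = 3).

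Other secreted modulators of vessel growth were described for context. Of 12 such genes 0 rose and 2 fell with thrombin, 4 rose and 0 fell between PD03 and thrombin, and 3 rose and 0 fell between PD03 and control. Over all tested genes, calls higher and lower made up 2.62% and 5.44%, 9.61% and 6.31%, and 4.9% and 4.07%, in that order. Tnmd, encoding the anti-angiogenic tenomodulin, was at 47.1, 46.9 and 44.6 CPM in control, 23.0, 27.9 and 23.7 CPM with thrombin and 176.7, 178.4 and 173.9 CPM with PD03. It fell by 0.89 with thrombin (adjusted p = 4.1e-15) and rose by 2.82 between PD03 and thrombin (adjusted p = 2.8e-34) and by 1.93 between PD03 and control (adjusted p = 6.3e-29), the order of groups also seen for Vegfd.

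Vegfa, Pgf and Angptl4 are known targets of hypoxia-inducible factors. Of 17 tested genes of that pathway, 2 rose and 1 fell with thrombin, and 1 rose and 2 fell between PD03 and thrombin. Between PD03 and control 0 rose and 1 fell. The shares called were 17.6%, 17.6% and 5.88%, where 8.06%, 15.9% and 8.97% of all tested genes were called. Hif1a, the oxygen-regulated subunit, was at 272.9, 254.6 and 261.8 CPM in control, 391.9, 395 and 407.6 CPM with thrombin and 308.8, 343.6 and 337.1 CPM with PD03. Its thrombin difference of 0.60 (SE 0.04, adjusted p = 2.3e-16) was called, but not with library totals (0.58), on the FPKM scale with 1 added (0.57) or without control replicate 2 (0.58). Adm, encoding the vessel-acting peptide adrenomedullin, fell by 0.91 with thrombin (adjusted p = 7.7e-23) and rose by 0.77 between PD03 and thrombin (adjusted p = 1e-20). Epas1, the other oxygen-regulated subunit, differed by -0.15 with thrombin (adjusted p = 0.0011). Ddit4, a stress-induced inhibitor of mTOR signalling, rose by 0.61 with thrombin (adjusted p = 1.8e-07), a call lost without control replicate 2 (0.58) or thrombin replicate 1 (0.50), and fell by 1.12 between PD03 and thrombin (adjusted p = 3e-14). Egln3, an oxygen-sensing prolyl hydroxylase, fell by 1.19 between PD03 and control (adjusted p = 5.4e-06).

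Angptl4 is also a target of PPAR and glucocorticoid receptors. Of 9 tested PPAR genes 0 rose and 2 fell with thrombin, 3 rose and 0 fell between PD03 and thrombin, and 0 were called between PD03 and control by edgeR. All tested genes were called higher and lower at 2.62% and 5.44%, 9.61% and 6.31%, and 4.9% and 4.07%, in that order. Pparg, the adipogenic receptor, had 21, 14 and 26 counts in control, 7, 2 and 8 with thrombin and 18, 18 and 21 with PD03. It fell by 1.88 with thrombin (SE 0.46, adjusted p = 0.0013) and rose by 1.77 between PD03 and thrombin (SE 0.46, adjusted p = 0.0014), where Angptl4 differed by -0.30 and -0.04. Of the 8 adipocyte markers 3 were tested, and these, with Pparg among them, fell with thrombin, beside 5.44% of all tested genes. Lep, encoding leptin, had 6, 17 and 10 counts in control, 0, 2 and 2 with thrombin and 81, 92 and 55 with PD03, and it rose by 2.76 between PD03 and control (adjusted p = 5.4e-09). Of 7 tested glucocorticoid targets 0 rose and 2 fell with thrombin, 2 rose and 3 fell between PD03 and thrombin, and 1 rose and 2 fell between PD03 and control. The shares over all tested genes are those given for the PPAR genes. Zbtb16, a transcription factor induced by dexamethasone, fell by 2.34 with thrombin (adjusted p = 5.4e-05) and rose by 1.72 between PD03 and thrombin (adjusted p = 0.0025), from 3 to 28 counts. Mt2A, a metallothionein, fell by 1.68 between PD03 and thrombin (adjusted p = 1.8e-21) and by 3.68 between PD03 and control (adjusted p = 3.9e-34), and Tsc22d3, a glucocorticoid-induced leucine zipper gene, rose by 1.17 between PD03 and control (adjusted p = 1.4e-14).

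Output genes of the ERK pathway served as a readout of the inhibitor beside the members. Dusp6, an ERK phosphatase that ERK signalling induces, was at 31.4, 30.9 and 28.9 CPM in control, 22.2, 20.5 and 26.5 CPM with thrombin and 4.82, 3.11 and 5.02 CPM with PD03. It fell by 2.40 between PD03 and thrombin (adjusted p = 4.1e-20), and its thrombin difference was -0.40 (adjusted p = 0.00085), not called. Spry4, a feedback inhibitor of receptor signalling, fell by 0.61 between PD03 and thrombin (adjusted p = 2.4e-05), a call lost without thrombin replicate 1 (-0.44), and by 0.87 between PD03 and control (adjusted p = 3.5e-08). Egr1, an immediate early transcription factor, fell by 3.70 between PD03 and thrombin (adjusted p = 1.7e-27) and by 4.18 between PD03 and control (adjusted p = 6.3e-29). Phlda1, another ERK-induced gene, rose by 0.98 with thrombin (adjusted p = 9.5e-16). The median log2 fold change of the 14 genes was 0.03 with thrombin, -1.10 between PD03 and thrombin and -1.30 between PD03 and control. Beside 8.06%, 15.9% and 8.97% of all tested genes, 2, 7 and 2 of 9 tested osteoblast markers were called in the same comparisons. They were 1 higher and 1 lower, 5 higher and 2 lower, and 2 higher and 0 lower. Over all tested genes these shares were 2.62% and 5.44%, 9.61% and 6.31%, and 4.9% and 4.07%. Of the markers, Spp1, encoding osteopontin, rose by 1.54 with thrombin and fell by 1.80 between PD03 and thrombin. Alpl, encoding alkaline phosphatase, fell by 2.23 and rose by 3.14 from 6 to 62 counts. Runx2 had means of 42.83 CPM in control, 51.1 with thrombin and 32.15 with PD03. The rise of Alpl between PD03 and control (log2 0.90, adjusted p = 0.011) was lost without control replicate 1 (0.63) or 2 (0.79) or PD03 replicate 3 (0.73).

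For each called member the genes with the most similar pattern over the 9 libraries were found by the root mean square difference of log2 CPM, each gene centred on its mean, among 11922 candidates. Vegfd was closest to Mgst3 (0.07), Ddr1 (0.11) and Tmem150a (0.11). Genes close to Angptl2 included Smtn (0.04) and Thbs2 (0.05), of which Thbs2 encodes a thrombospondin known as an inhibitor of vessel growth. Thbs2 had means of 4664 CPM in control, 4132 in thrombin and 7658 in PD03 libraries. Pgf was closest to Sipa1l2 (0.07), Pitpnc1 (0.08) and Steap3 (0.09), and Vegfb to Haus7 (0.06), Cebpb (0.06) and Pcna (0.06). Angpt1 was closest to Cspg5 (0.07), Mnda (0.08) and RGD1311744 (0.12), and Angpt2 to Kctd12 (0.11), C4b (0.12) and C5ar2 (0.12). These are descriptions over shared libraries.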

How the data were processed

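Poly(A) RNA of 9 libraries, 3 per group, was sequenced on an Illumina HiSeq after preparation with a kit that does not mark strand. The authors trimmed reads, aligned them with HISAT2 and counted them per gene. The submitters' processing notes name HTSeq 0.13.5 and mRatBN7.2, whereas the study's methods name featureCounts and an earlier rat assembly, so the counter and build of the table are not settled. The deposited table gives raw counts and FPKM values computed by the authors for 19085 genes, of which 2048 carry an Ensembl ID in place of a symbol. No coordinates were taken from it.

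Counts were filtered with filterByExpr (minimum 10), which left 13256 genes, scaled by TMM and tested with edgeR 4.0.16 (quasi-likelihood, all 9 libraries, group means) in R 4.3.3 with limma 3.58.1 and Benjamini-Hochberg adjustment over all tested genes. The thresholds, adjusted p under 0.05 and absolute log2 fold change above 0.58, follow the study's methods. The common biological coefficient of variation was 4.28%. Alternatives were other scalings and filters, DESeq2 1.42.0, voom, log2 FPKM with 1 or 0.1 added, other fold thresholds, a replicate block and leaving out each library. The fit was tested on simulated data first.

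The members and gene lists were chosen with earlier results of these data known. Named genes were the 9 members, 7 receptors, the called gene with the largest rise and fall of each further list in each comparison, Hif1a, Epas1, Pparg, Dusp6 and Spry4, and the genes of most similar pattern, of which 1 is not reported here. Other markers were named, after their values were seen, to check the cell type. The TATA and GC box letters were added after the promoter windows had been seen. Promoters are from RefSeq (GRCr8). Intervals on counts cover counting error only.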

Additional observations from a re-analysis of the deposited data

How the results depend on the processing

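Over 23 alternatives at most, no call of Vegfd, Angpt1 or Angpt2 was lost between the groups in which it was made by changing the scaling, the filter, the test or the libraries, apart from Angpt1 with thrombin at an absolute log2 fold change above 1, and Angpt2 was not tested where a mean count of 50 was required. Members called numbered 8 with thrombin and 6 between PD03 and control with no fold threshold, 1 with thrombin and 2 between PD03 and thrombin above a log2 fold change of 1, and 3 between PD03 and thrombin with glmTreat, by construction of these thresholds. Receptors called with thrombin numbered 0 with FPKM and 1 added, above a log2 fold change of 1, with glmTreat and with a mean count of 50, and 4 with no fold threshold. Calls over all genes, 1068, 2110 and 1189 in the comparisons as ordered above, became 543, 1254 and 676 with FPKM and 1 added, 3808, 6608 and 5289 with no fold threshold, 505, 935 and 519 above a log2 fold change of 1, and 460, 1051 and 499 with glmTreat. The split of calls differed between settings. Of calls between PD03 and thrombin, 60.4% were higher with TMM, 61.9% with upper quartile scaling and 59% with DESeq2. That share was 46.5% with library totals and 42.8% and 46.3% on the FPKM scales with 1 and 0.1 added, where the test differs too. Between PD03 and control the shares, in the same order, were 54.6%, 54%, 54.8%, 34.1%, 36.2% and 34.3%. Library totals moved the median of all genes between PD03 and control from 0.00 to -0.12, and the same members were called with them in each of the 3 comparisons. Signs turned where the difference was not called and near 0, apart from Kdr with thrombin, which stood at 0.30 from 4 to 19 counts in thrombin libraries. Vegfa with thrombin was -0.01430 with upper quartile scaling, -0.01712 with library totals, -0.005606 with a mean count of 50, -0.0004801 with voom, -0.0146 and -0.01513 with FPKM and 1 or 0.1 added, and -0.01503 to 0.02866 when a library was left out. Angpt2 between PD03 and control was -0.08173 with library totals, -0.04665 and -0.08224 with FPKM, and -0.04888 to 0.1366 by leaving out a library, and Flt4 was -0.07428, -0.02200 and -0.06211, and -0.1279 to 0.1651. Leaving out a library gave -0.2185 to 0.7025 for Kdr and -0.1848 to 0.01802 for Tek with thrombin, and -0.2964 to 0.1398 for Pparg between PD03 and control. Pcsk5 between PD03 and thrombin was -0.02405, -0.02474 and -0.02673, and Ptprb -0.02597, -0.002982 and -0.02349, with library totals and FPKM, and Ptprb was -0.3236 to 0.3175 without a library. Replicate numbers are shared between groups, and whether they pair the samples is not stated. Deviations of same-numbered libraries correlated at -0.041 to 0.069. No shared replicate effect was visible there, but such values cannot show that the samples were unpaired. With the replicate block 3, 5 and 3 members were called, as without it, and 1067, 2103 and 1187 genes in all. Leaving out a library moved list counts with thrombin to 0 (other angiopoietin and angiopoietin-like genes), 1 (hypoxia) and 1 (macrophage) without control replicate 2, to 5 (ERK output) without thrombin replicate 1 and to 1 (modulators) without thrombin replicate 2. Between PD03 and thrombin the counts went to 1 (endothelial) without thrombin replicate 2 or PD03 replicate 2, to 4 (mural) without PD03 replicate 3, and to 0 (other angiopoietin-like) without thrombin replicate 1 or 3 or PD03 replicate 2 or 3. Between PD03 and control they went to 0 and 1 (osteoblast) without control replicate 1 and 2, to 1 (osteoblast) without PD03 replicate 3, to 2 (receptors) without control replicate 3 or PD03 replicate 1, to 2 (hypoxia) without PD03 replicate 1 and to 0 (macrophage) without PD03 replicate 2. Depth limited Kdr, Angpt2, Flt4, Angptl7 and Angptl8, each under 80 counts a library.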

Other observations

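VEGF-C and VEGF-D are made as precursors that proteases cleave to their active forms, and a list of 8 genes of that step was looked up after the data had been seen. All 8 were tested. Ccbe1, which encodes the secreted scaffold that presents VEGF-C to its protease, was the member with the largest differences. It was at 137 ± 2.5 CPM in control, 260 ± 9.7 with thrombin and 67.7 ± 5.1 with PD03 (SD, n = 3), without overlap between the groups. It rose by 0.93 with thrombin (adjusted p = 4.3e-21) and fell by 1.94 between PD03 and thrombin (adjusted p = 7.9e-32) and by 1.02 between PD03 and control (adjusted p = 5.1e-21), the opposite order to Vegfd, whose differences were -0.46, 1.49 and 1.04. Vegfc, whose protein this scaffold presents, differed by -0.28, 0.14 and -0.13 and was not called in any comparison. Plau, encoding urokinase, fell by 1.04 between PD03 and thrombin (adjusted p = 2.4e-09). Adamts14, a procollagen protease that can also cleave VEGF-C, rose by 0.79 in the same comparison (adjusted p = 8e-16). Furin, a proprotein convertase, was at 203 ± 9.6, 280 ± 2.9 and 192 ± 5.8 CPM in the 3 groups, and its difference of -0.54 between PD03 and thrombin was called with library totals (-0.64) but not with TMM. Adamts3, the main VEGF-C protease, differed by -0.57 there (adjusted p = 7.3e-05), at the edge of the fold threshold. Pcsk5, Pcsk7 and Ctsd were not called in any of the 3 comparisons.

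A second list, also set after the data had been seen, held 6 matrix and cell-surface partners of the ligands. Svep1, a large matrix protein that binds the angiopoietin receptor pathway in lymphatic development, was at 1002 ± 9.3 CPM in control, 541 ± 17 with thrombin and 852 ± 24 with PD03. Svep1 fell by 0.89 with thrombin (adjusted p = 1.2e-24) and rose by 0.65 between PD03 and thrombin (adjusted p = 2.3e-20). The second call was lost with library totals (0.55), on both FPKM scales (0.55 and 0.55), above a log2 fold change of 1 and with glmTreat. Lpl, the lipase that ANGPTL4 inhibits, fell by 1.06 with thrombin (adjusted p = 1.9e-23), where Angptl4 differed by -0.30. Between PD03 and thrombin Lpl rose by 0.67 (adjusted p = 7e-17). This call was lost with library totals (0.57), on both FPKM scales (0.55 and 0.57), above a log2 fold change of 1 and with glmTreat (adjusted p = 0.074). Itga9, an integrin subunit bound by VEGF-C and VEGF-D, had 16 to 68 counts. It rose by 1.62 between PD03 and control (adjusted p = 2.3e-06) and by 0.94 between PD03 and thrombin (adjusted p = 0.0011). Both calls were lost on the FPKM scale with 1 added (0.44 and 0.29). The second was also lost above a log2 fold change of 1 and with glmTreat (adjusted p = 0.2). Itga5, Itgb1 and Ptprb were not called.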
